A study of Solanum lycopersicum with 9 samples.

Results

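The 6 libraries described here are the guard-cell transcriptomes of the tomato cultivar M82 and of its DELLA loss-of-function line pro, 3 libraries each, out of 9 libraries in all, divided by how much of one dehydrin transcript they held. The 3 libraries with the highest normalized count of Solyc02g084850 (M82 library 3, pro library 1 and pro library 3) form the dehydrin-high set, and the 3 with the lowest (M82 libraries 1 and 2, pro library 2) the dehydrin-low set. The division therefore runs across the genotypes, with libraries of both genotypes on both sides. The 3 libraries of the DELLA gain-of-function line pro∆17 did not enter the division and are given as a reference.

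All 3 genotypes share the M82 background (sp-/sp in the labels), a day of 12 h light and 12 h dark, 25 °C and about 250 μmol m-2 s-1 of light. The labels name no water treatment, plant age or sampling time for any library. Guard cells, which border each stoma and set how wide it opens, were enriched by blending 4 fully expanded leaves freed of veins and keeping the epidermal peels on a mesh, and poly A RNA was sequenced. The peels are not sorted cells, and nothing in the labels says that libraries of a genotype came from separate plants. The promoter or other construction of pro∆17 is not stated in the labels, and the titles of its libraries 2 and 3 carry other numbers after the delta than their genotype label, which was followed here. Recovered depth of the 6 libraries ran from 16557177 to 20445679 reads, and between 4.35% and 7.28% of a library (all 9 considered, highest in pro library 3) came from its 10 leading genes.

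Dehydrins are hydrophilic proteins that plant cells accumulate when they lose water, and many dehydrin genes answer to abscisic acid, the hormone that closes stomata in a drying leaf. DELLA proteins, of which tomato has PROCERA, repress responses to gibberellin, a hormone of growth. Type 2C protein phosphatases hold abscisic acid signalling back and are themselves transcribed more when the hormone is present. Pathogenesis-related proteins are made in defence against microbes.

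The locus that made the division, a dehydrin by its working name and not checked against an annotation, read 12.6 normalized counts in M82 library 1, 38.3 in M82 library 2 and 7.91 in pro library 2. In the high set it read 174 (M82 library 3), 331 (pro library 1) and 35710 (pro library 3). The values nearest to the boundary were thus 38.3 on the low side and 174 on the high side, both in M82. The pro∆17 libraries read 42.2, 35.9 and 37.4, close to M82 library 2 and below all 3 high libraries. As these values chose the libraries, they are a description and carry no test, and the same holds for every difference between the high and low sets given below.

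**Figure D1:**
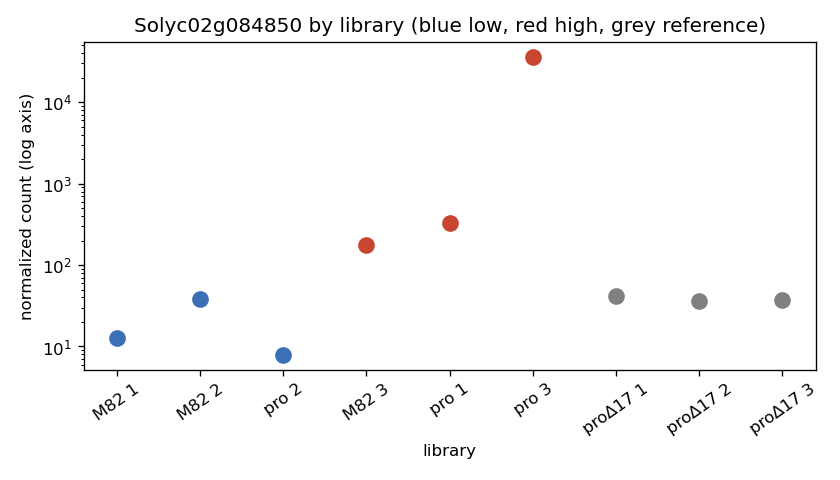
Normalized count of Solyc02g084850 (log axis) in the 3 dehydrin-low libraries (blue), the 3 dehydrin-high libraries (red) and the 3 pro∆17 reference libraries (grey), 1 point per library. Pro library 3, at 35710, stands far above the other high libraries at 174 and 331.

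The division was not confined to one transcript. Of 20951 genes with enough reads to be compared, 150 (0.716%) were at least 2-fold higher in every high library than in every low library, and 153 (0.73%) were at least 2-fold lower, on the scale of log2 of the normalized count plus 1. Without the 2-fold margin, 3867 genes (18.5%) lay higher and 3988 (19%) lower in all high libraries, and the median difference over all genes was 0.01 on the log2 scale. Scaling to equal total reads gave 176 higher and 97 lower, so 64.5% of these genes were higher against 49.5% with the deposited scaling, and it moved the median over all genes to 0.09. Asking less, with 1 library left out, gave more genes: 231 higher without M82 library 1, 268 higher and 525 lower without M82 library 3, 272 higher and 247 lower without pro library 1, and 225 higher without M82 library 2. The 303 genes were mostly of modest abundance, with a median over 6 libraries of 80.1 normalized counts for the higher and 101 for the lower genes, against 301 for all genes compared.

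The high libraries were not equal. Over the 150 higher genes the median level above the mean of the low libraries was 2.04 (log2) for M82 library 3, 2.12 for pro library 1 and 2.55 for pro library 3. Over the 153 lower genes the corresponding medians were -1.42, -2.00 and -3.19. Pro library 3 held the lowest level at 139 of the 153 lower genes. It held the highest at 74 of the 150 higher genes, where M82 library 3 led at 44 and pro library 1 at 32. How often each high library was the most extreme over all genes was not counted, so nothing is read from these counts. Those 6 libraries stood in exactly the order of the dehydrin locus at 8 of the 150 higher genes (5.33%) and in the inverse order at 15 of the 153 lower genes (9.8%). Over all genes compared, 249 (1.19%) had that order and 302 (1.44%) the inverse. Genes chosen for separating the sets already have part of the order fixed, so nothing is read from the difference in shares.

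**Figure D2:**
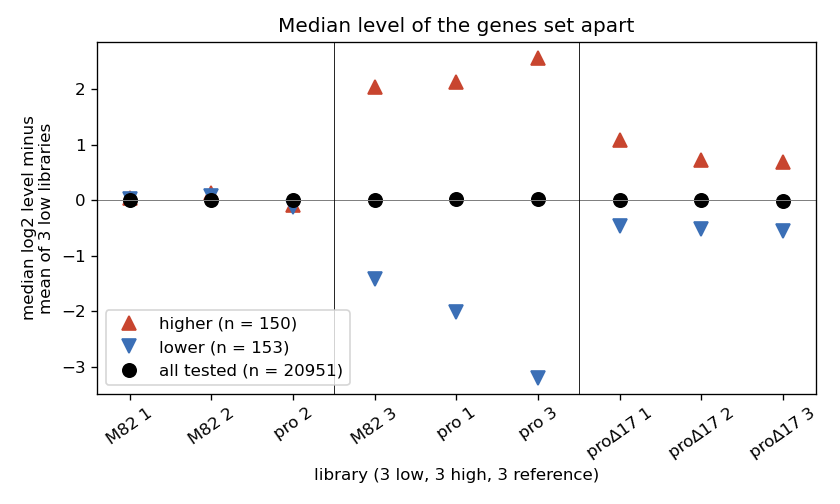
Median log2 level, minus the mean of the 3 low libraries, of the 150 higher genes, the 153 lower genes and all 20951 genes compared, in each library (3 low, 3 high, 3 pro∆17). The high libraries define the lists, so their distance from 0 is fixed by the choice; the pro∆17 libraries lie between, at 0.69 to 1.08 for the higher and -0.55 to -0.46 for the lower genes.

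The difference can be taken within each genotype, from libraries that the other does not include. The genotypes are not thereby independent: same-numbered M82 and pro libraries deviated from their group means together (correlations across genes of 0.133, 0.503 and 0.523 for numbers 1, 2 and 3). M82 library 1, however, correlated better with pro library 2 (0.259) than with pro library 1 (0.133). M82 library 3 and pro library 1, both high, hardly deviated together (0.0148). Pro library 1 went better with M82 library 1, a low library (0.133). Both libraries numbered 3 are high and both numbered 2 are low, while those numbered 1 are on opposite sides. What the overlaps and the correlation below owe to the shared number cannot be told apart from the division. Within M82, 547 genes (2.61%) were at least 2-fold higher in library 3 than in both other libraries, and 462 (2.21%) were at least 2-fold lower. Within pro, 859 genes (4.1%) were at least 2-fold higher in libraries 1 and 3 than in library 2, and 1099 (5.25%) lower. The higher lists shared 257 genes, which is 47% of the M82 list and 29.9% of the pro list, and the lower lists shared 211, which is 45.7% and 19.2%. Without M82 library 2 the shared part was 27.0% of the M82 higher list and 31.8% of the M82 lower list. Without pro library 1 it was 68.4% and 73.2%. Leaving out a library changes the lists themselves. Shares over all genes were not counted for these settings, so nothing is read from the changes.

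Genes picked on M82 libraries alone also showed how the pro libraries were graded. The 547 genes higher in M82 library 3 had a median difference of 1.06 (log2) between pro library 1 and pro library 2, with 81% of them above 0, and of 1.58 between pro library 3 and pro library 2, with 85.9% above 0. The 462 genes lower in M82 library 3 had medians of -0.99 and -2.06 in the same comparisons, with 21.4% and 10.2% above 0. Over all genes both medians were 0.015, with 51.3% and 50.6% above 0. The 2 pro differences share pro library 2, and their sizes are not independent of it. Between pro library 3 and pro library 1, both high, the medians were 0.500 for the 547 genes and -0.996 for the 462. Over all genes that median was -0.004.

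Across the 20951 genes the difference within M82 (library 3 minus the mean of 1 and 2) and that within pro (mean of 1 and 3 minus 2) had a Pearson r of 0.555 and a Spearman rho of 0.569. The correlation with the M82 difference was 0.454 for pro library 1 minus 2 alone and 0.560 for pro library 3 minus 2 alone. For pro library 3 minus 1, both on the high side, it was 0.399. The agreement was thus not particular to the boundary between the sets. Genes are not independent replicates, all values share the authors' scaling, and the direction in each genotype was set by the dehydrin locus, so no p is given.

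**Figure D3:**
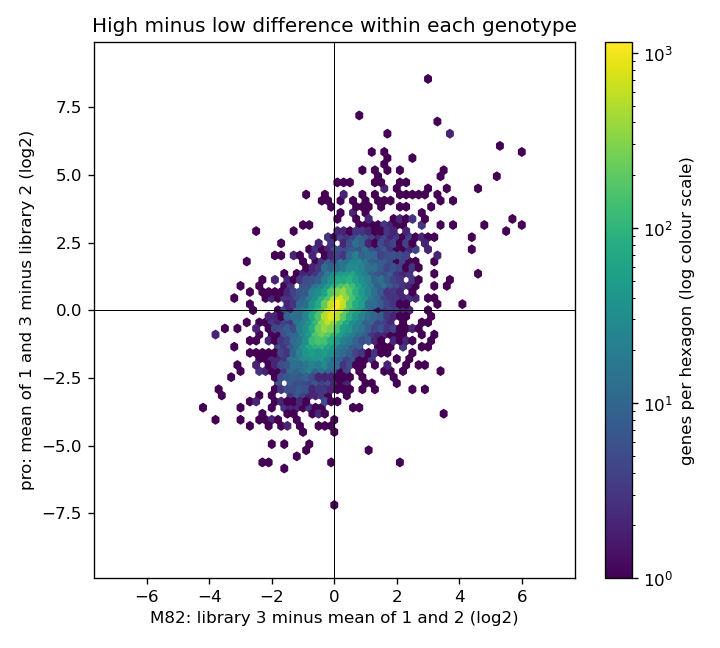
Each hexagon counts genes by their high minus low difference within M82 (x axis, log2) and within pro (y axis, log2), over 20951 genes on a log colour scale. The cloud is drawn out from lower left to upper right (Pearson r of 0.555 across genes), and the pro axis covers the wider range.

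Among genes with a mean of at least 50 normalized counts over the 6 libraries, the 10 with the widest margin above the low set included the dehydrin locus. The table pairs its identifiers with no names, so these loci are given by identifier, and 4 of the 20 loci named here also stand on the gene lists described further on. The widest margin was at Solyc09g007010, with 2.28, 1.96 and 0 normalized counts in the low libraries (M82 library 1, M82 library 2, pro library 2) and 199, 53.0 and 67.2 in the high libraries (M82 library 3, pro library 1, pro library 3). This locus had at most 2.28 normalized counts in the low set, and M82 library 3 was its highest library.

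Solyc00g174340 read 82.3, 69.7 and 215 in the low libraries and 3659, 1613 and 1642 in the high ones, in the same library order. Here too M82 library 3 stood highest, 48.2-fold above the mean of the other M82 libraries, while both high pro libraries were close to 7.5-fold above pro library 2 (7.49 and 7.62). Solyc03g025670 read 37.7, 25.5 and 14.8 in the low libraries and 374, 329 and 341 in the high ones. Its 3 high libraries were nearly level, so this locus separated the sets without following the extreme dehydrin level of pro library 3.

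Solyc10g075150 stood at 14.9, 20.6 and 3.95 in the low libraries and 729, 163 and 804 in the high ones. Solyc10g075090, whose identifier is close to it on chromosome 10, read 812, 735 and 584 in the low libraries and 3855, 4341 and 58161 in the high ones. Like the dehydrin locus, Solyc10g075090 was far higher in pro library 3 than in any other library, 99.6-fold above pro library 2 against 7.43-fold in pro library 1 and 4.98-fold in M82 library 3 over the mean of M82 libraries 1 and 2. Solyc03g095650 also peaked in pro library 3, with 0, 8.83 and 10.9 in the low libraries and 121, 124 and 1185 in the high ones.

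At Solyc12g009770 the low libraries read 10.3, 16.7 and 4.94 and the high ones 364, 218 and 86.9. At Solyc01g008620 they read 20.6, 31.4 and 39.5 against 528, 211 and 180. At both loci M82 library 3 was highest and pro library 3 lowest of the high set, the reverse of the dehydrin order. Solyc06g062420, with 9.14, 6.87 and 0 against 89.5, 168 and 95.9, was highest in pro library 1.

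**Figure D4:**
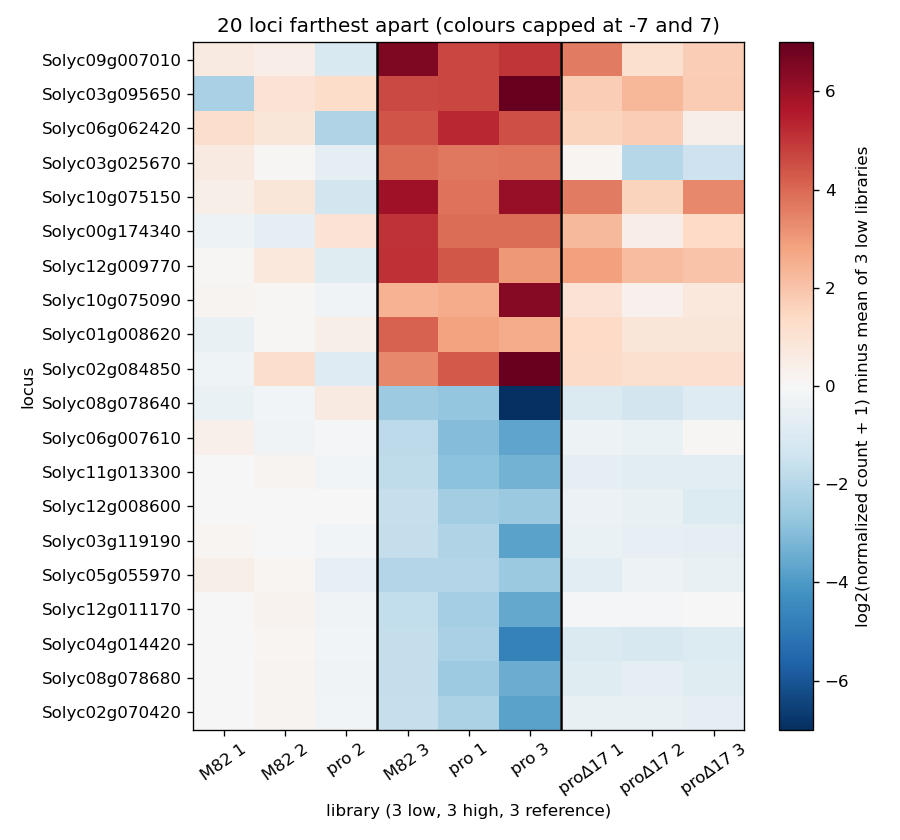
Log2(normalized count + 1) minus the mean of the 3 low libraries (colour, capped at both ends) for the 10 loci with the widest margin higher and the 10 lower, in the 3 low, 3 high and 3 pro∆17 libraries. The upper loci differ in which high library leads, while at every lower locus pro library 3 is the lowest.

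The margins of the lower loci were narrower. Solyc08g078640 had the widest, with 194, 233 and 420 normalized counts in the low libraries and 45.2, 40.0 and 0.90 in the high ones. Pro library 3, at 0.90, was far below every other library. Solyc06g007610 read 303, 202 and 215 in the low libraries and 64.6, 28.0 and 17.0 in the high ones, and Solyc11g013300 read 418, 478 and 372 against 122, 56.0 and 42.1. At these loci, as at all 10, the order of the high libraries was M82 library 3 above pro library 1 above pro library 3.

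The most abundant of the 10 was Solyc02g070420, at 880, 1019 and 791 in the low libraries and 296, 190 and 64.5 in the high ones. Solyc03g119190 read 595, 570 and 490 against 173, 129 and 39.4. Its level in M82 library 3 was 0.296 of the mean of the other M82 libraries, and pro libraries 1 and 3 stood at 0.263 and 0.0804 of pro library 2. For the other 5 loci (Solyc12g008600, Solyc05g055970, Solyc12g011170, Solyc04g014420 and Solyc08g078680) the M82 ratio was 0.192 to 0.319, that of pro library 1 was 0.174 to 0.343 and that of pro library 3 was 0.0354 to 0.234.

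Some of the genes set apart lay close to each other in identifier order. Counting neighbours within 5 genes in that order, 25 of the 150 higher genes had another higher gene in the window. Examples are Solyc10g075090, Solyc10g075110 and Solyc10g075150, or Solyc01g009680, Solyc01g009690 and Solyc01g009700. Of the 153 lower genes, 22 had another lower gene in the window, among them Solyc08g078640 and Solyc08g078680. The same count for genes drawn at random was not made, so nothing is read from these numbers. Near-identical neighbours can share reads, which cannot be told apart here. Chromosome 12 carried 10% of the higher genes and 7.84% of the lower genes, against 6.57% of all genes compared. Chromosome 11, that of PROCERA, carried 2.67% of the higher genes (4 genes) and 6.54% of the lower genes, against 6.93%. Shares by chromosome were not tested.

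The 6 genes whose log2 levels ran most nearly parallel to the dehydrin locus over the 6 libraries had Pearson r between 0.997 and 0.999 (n = 6), and in all 6 pro library 3 was the highest library. They were picked as the best of all genes with a mean of at least 50 normalized counts, so r near 1 follows from the choice. With n = 6, r also leans on pro library 3, whose dehydrin level was far above the others. The ranges of these 6 genes were far smaller than that of the dehydrin locus. Solyc08g081340, the most alike, went from 691 in pro library 2 to 997 in pro library 3, with 705 and 736 in M82 libraries 1 and 2, 776 in M82 library 3 and 809 in pro library 1. Solyc01g090120 had 27.4, 36.3 and 27.7 in the low libraries and 53.5, 64.0 and 187 in the high ones, and Solyc08g080540 had 271, 360 and 256 against 511, 551 and 1382. Solyc08g082970, Solyc10g054030 and Solyc03g115690 were set apart by margins of 1.14-fold to 1.21-fold.

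In the pro∆17 libraries the genes of the division stood between the sets, with medians of 0.69 to 1.08 (log2) over the higher genes. Over the lower genes the medians were -0.55 to -0.46. The genes were chosen for separating the high from the low libraries, so libraries left out of the choice tend to lie between. The counts below have no share over all genes beside them, and no conclusion is drawn from them. All 3 pro∆17 libraries lay below every high library at 125 of the 150 higher genes (83.3%) and above every high library at 139 of the 153 lower genes (90.8%). They were not the same as the low libraries: all 3 exceeded every low library at 79 higher genes and lay under every low library at 98 lower genes. Solyc03g025670, at 26.9, 5.39 and 8.45 in pro∆17, was within or below the low range, whereas Solyc10g075150, at 145, 34.1 and 122, was above it. Solyc00g174340 read 527, 149 and 286 in pro∆17, overlapping the low range and below all high libraries.

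The gene lists were drawn up by identifier from general knowledge of the tomato genome, with earlier results of these data known. Counts over a list are therefore a description and carry no test. What each locus encodes was not checked against an annotation, so the lists are described by their names and counts, and single loci by values without a role. The shares over all genes to read them against are 0.716% higher and 0.73% lower by 2-fold, and 18.5% higher and 19% lower without overlap. How often a given library was the highest or lowest of the 6 over all genes was not counted. Such counts below are therefore not read as a trait of a list. The list of pathogenesis-related loci had 3 of 7 loci 2-fold higher and 0 lower. It did not go one way as a whole: its median difference was 1.23 (log2) within M82 and -0.40 within pro, and pro library 2, a low library, was the highest of the 6 at 3 of the 7 loci. One of its 2-fold loci read 70.8, 60.8 and 55.4 in the low libraries and 468, 224 and 2041 in the high ones. Another locus of the list read 175, 203 and 613 in the low libraries and 329, 44.0 and 52.9 in the high ones, so M82 library 3 was above the other M82 libraries and the high pro libraries were below pro library 2.

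Of the 17 loci listed for abscisic acid signalling, 7 were higher without overlap in the high libraries, 1 of them by 2-fold, and 2 were lower without overlap, beside 18.5% and 19% of all genes. The 2-fold locus read 68.5, 75.6 and 35.6 in the low libraries and 306, 539 and 1979 in the high ones, against 22.9 to 55.6 in pro∆17. Another read 1398, 1445 and 1212 in the low libraries and 2876, 3597 and 7648 in the high ones, just under the 2-fold margin at 1.99-fold. At both, the high libraries stood in the order of the dehydrin locus, with pro library 3 far ahead, and pro library 3 was the highest of the 6 libraries at 11 of the 17 loci. The lower locus with the wider margin read 353, 237 and 267 in the low libraries and 220, 177 and 88.7 in the high ones. The list median was 0.19 within M82 and 0.40 within pro.

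For abscisic acid synthesis and turnover, 4 of 7 loci were higher without overlap (18.5% of all genes) and 0 by 2-fold. The locus with the widest margin read 334, 980 and 690 in the low libraries and 2207, 1337 and 2052 in the high ones, and 1086, 1038 and 1096 in pro∆17. The list's median difference was 0.55 within M82 and 0.98 within pro, beside 0.01 in both for all genes. Pro library 3 was the highest library at 5 of these 7 loci.

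The other listed dehydrin and late embryogenesis loci varied less than Solyc02g084850 where they had enough reads to be compared. Of 8 listed, 6 were compared and 3 were higher without overlap (18.5% of all genes), of which 1 is the locus that made the division. One of these read 1518, 1583 and 830 in the low libraries and 2214, 2907 and 3241 in the high ones, while pro∆17 read 2160 to 2489. Another abundant locus overlapped between the sets, with 9865, 8893 and 10598 in the low and 11741, 8078 and 14148 in the high libraries. The 2 loci with too few reads to be compared stood at 57.4 and 60.0 in pro library 3 and at no more than 7.99 in any other library. Pro library 3 was the highest of the 6 libraries at 7 of the 8 loci.

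**Figure D5:**
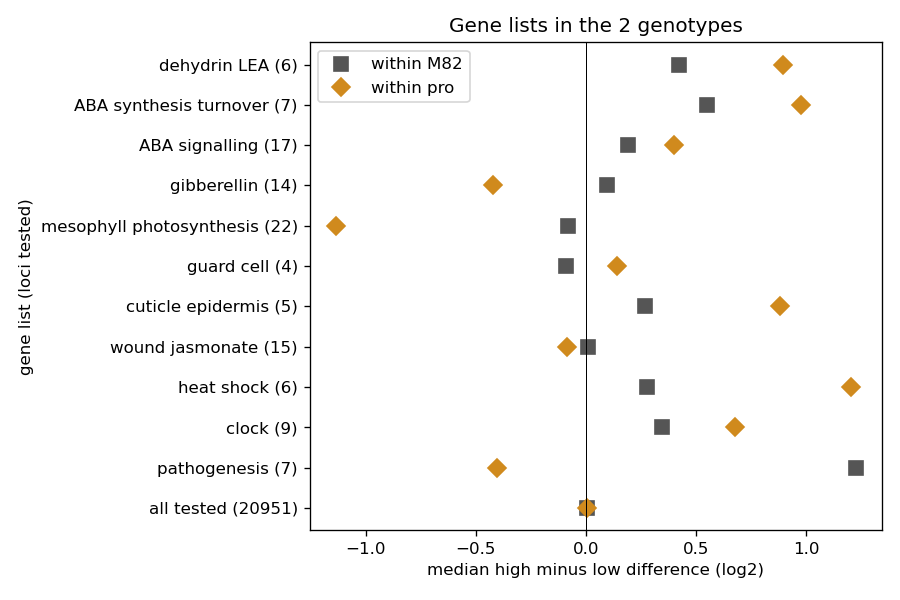
Median high minus low difference (log2) of each gene list with at least 4 loci compared, within M82 (squares, library 3 minus the mean of 1 and 2) and within pro (diamonds, mean of 1 and 3 minus 2), with the number of loci in brackets. Abscisic acid, clock and heat shock lists lie on the positive side in both genotypes, while the pathogenesis, gibberellin, guard cell and wound lists have opposite signs in the 2 genotypes. All genes lie at 0.01.

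Light-harvesting and Rubisco small subunit genes are far more active in mesophyll than in most epidermal cells and are also used in guard cells. Loci listed for them had lower levels on the high side by more within pro than within M82. Of 22 compared, 0 were 2-fold lower in all high libraries and 6 lower without overlap, against 19% of all genes, so this count is near the background. None was higher without overlap (0 of 22, against 18.5% of all genes). The median difference was -0.08 within M82 and -1.14 within pro, and pro library 3 held the lowest level of the 6 libraries at 21 loci and pro library 2 the highest at 20. The summed level of the list was 606948, 709975 and 825035 in the low libraries and 570253, 550633 and 317361 in the high ones, against 553468 to 600042 in pro∆17. The most abundant locus read 100717, 108196 and 109798 in the low libraries and 73875, 71530 and 41942 in the high ones.

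Within pro the levels of these mesophyll markers went with the division, while within M82 their median difference was small. Their part in the other differences was not tested. In bulk RNA, fewer cells of a type and less RNA per cell cannot be told apart. Of the 4 loci listed as guard cell markers, 0 were set apart, with medians of -0.09 within M82 and 0.14 within pro and summed levels of 3331 to 4638 in the low and 3602 to 4988 in the high libraries. All 4 had reads in every library. Of the 4 trichome loci, 2 were in the table, with summed levels of 12.9 to 17.1 in the low and 2.69 to 21.0 in the high libraries. The single phloem locus read 11745, 13367 and 11118 in the low and 15659, 19044 and 27084 in the high libraries, without overlap.

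Among cuticle and epidermis loci, 1 of 5 was 2-fold higher. Without overlap, 2 of 5 were higher (18.5% of all genes) and 1 was lower (19%). The summed level of the list was 162532 to 207438 in the low libraries, 196680 and 257915 in M82 library 3 and pro library 1, and 598906 in pro library 3. The lower locus read 29145, 28852 and 40261 in the low libraries and 17227, 19767 and 7549 in the high ones, and 13808 to 15657 in pro∆17, so there the reference libraries lay below the low set.

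Of the 9 clock loci compared, 7 were higher in all high libraries (18.5% of all genes) and 0 lower (19%), and 0 differed by 2-fold, with medians of 0.35 within M82 and 0.68 within pro. The most abundant locus of the list was nearly level, at 20574, 19236 and 19461 in the low libraries and 19090, 19803 and 21850 in the high ones. The clock locus with the widest margin read 267, 280 and 284 in the low libraries and 591, 430 and 763 in the high ones. Of 6 heat shock loci compared, 3 were higher and 1 lower without overlap, beside 18.5% and 19% of all genes. Their most abundant locus read 335, 333 and 244 in the low libraries, 402 and 399 in M82 library 3 and pro library 1, and 1754 in pro library 3. The summed level of the list was 631 to 919 in all M82 and pro libraries but pro library 3, which had 3295. Of 15 wound and jasmonate loci, 0 were 2-fold higher and 1 was 2-fold lower, with medians of 0.01 within M82 and -0.09 within pro. That locus had few reads, at 13.7, 10.8 and 10.9 in the low and 4.61, 3 and 0 in the high libraries.

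Of 14 gibberellin loci compared, 0 were 2-fold apart, and the medians were 0.10 within M82 and -0.42 within pro. PROCERA (Solyc11g011260) overlapped between the sets, at 3754, 3934 and 4507 in the low libraries and 3824, 3892 and 2851 in the high ones, below 5486 to 7448 in pro∆17. Pro library 3 held its lowest level.

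The labelled genotype, which the division did not use, was tested over all 20951 genes with limma and Benjamini-Hochberg adjustment, with all 9 libraries in the fit. Between pro and M82, 44 genes (0.21%) passed an adjusted p of 0.05, 16 higher (0.0764%) and 28 lower (0.134%) in pro. Of the 303 genes set 2-fold apart by the division, 0 passed, and edgeR and DESeq2 on recovered reads also called 0. Over all 20951 genes edgeR called 38 and DESeq2 183. Calls were thus rare in general, and nothing is read from these counts of 0. At an unadjusted p under 0.05 limma had 2 of the 150 higher genes (1.33%) and 19 of the 153 lower genes (12.4%), against 6.83% of all genes. A gene that separates high from low libraries varies within both genotypes by construction, which widens its spread in this test. The high set also holds more pro than M82 libraries and the low set the reverse, so division and genotype are partly confounded. What each adds to these shares was not tested. The count of 44 was 27 without M82 library 1, 25 without M82 library 2, 766 without pro library 2, 23 in a fit of the 6 libraries alone and 183 in DESeq2.

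The level of the dehydrin locus, whose values made the division, is compared between the genotypes without a test. Pro stood 3.38 above M82 in the mean of its log2 levels. That difference was 0.26 without pro library 3 and 6.25 without pro library 2.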

How the data were processed

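Poly A RNA of guard-cell-enriched leaf epidermis was sequenced in 9 libraries, 3 each of M82, pro and pro∆17, grouped by the description label. Per the submitters' processing notes the authors used DESeq2, HTSeq, STAR 2.4.2a and cutadapt. Which genome build, annotation and strand setting they chose is not given in these sources. The deposited signal is a normalized count per gene, per the file headers, for 23028 genes, and depth was 14826561 to 20445679 recovered reads per library. Within 0.006, 100.0% of values were whole multiples of one step per library, whose size in pro library 1 is close to 1, and reads were recovered from it.

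Libraries were divided by the deposited normalized count of Solyc02g084850, and differences between the sets were described without a test. The dehydrin identity of that locus, PROCERA's and those of 136 loci in 13 lists come from general knowledge. The RefSeq table used here (SLM_r2.1) matched 0 identifiers. Of the listed loci, 123 were in the table and 114 compared. Genes passed edgeR's expression filter (20951 kept, 2077 left out), and the pseudocount was 1. Differences understate low genes. Members, lists and rules were chosen with earlier results of these data known. Named genes were, at a mean of at least 50, the 10 with the widest margin in each direction, the 6 most like Solyc02g084850, that locus and PROCERA, and list loci 2-fold apart.

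Pro against M82 was tested with limma 3.58.1 (R 4.3.3) with a mean-variance trend, and with edgeR 4.0.16 and DESeq2 1.42.0 on recovered reads as alternatives. Since no label says that libraries came from separate plants, p-values reflect variation among libraries that could be technical. Scripts were tested on simulated data. Same-numbered M82 and pro libraries deviated from their group means together (correlations across genes of 0.133, 0.503 and 0.523). M82 library 1, however, correlated better with pro library 2 (0.259), and M82 library 3 hardly correlated with pro library 1 (0.0148). The labels do not say what the number marks. It was left out of the main fit and entered as a block in an alternative fit.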

Additional observations from a re-analysis of the deposited data

Results flagged for a closer look

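The high minus low difference had opposite signs in the 2 genotypes at some genes. At 17 genes M82 library 3 was at least 2-fold above both other M82 libraries while pro libraries 1 and 3 were at least 2-fold below pro library 2. At 6 genes the reverse held. These are 3.11% of the M82 higher list and 1.3% of the M82 lower list. Over all genes, 5.25% were 2-fold lower and 4.1% 2-fold higher in pro libraries 1 and 3. Both shares thus lay below those over all genes. The difference between genotypes was not tested. Of these genes, 2 had a mean of at least 50 normalized counts over the 6 libraries. Solyc01g108240 read 20.6, 285 and 608 in M82 libraries 1, 2 and 3 and 61.0, 359 and 133 in pro libraries 1, 2 and 3. Solyc08g007820 read 37.7, 157 and 431 in M82 and 62.0, 308 and 121 in pro. In pro∆17 libraries 1, 2 and 3 Solyc01g108240 read 136, 175 and 303, and Solyc08g007820 read 89.2, 219 and 266. At both loci library 1 was thus the lowest of each genotype. Whether they go with the library number was not tested.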

How the results depend on the processing

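The number of genes 2-fold higher in the dehydrin-high libraries was 90 and of those lower 101 with a mean of at least 50 normalized counts, which leaves fewer genes to compare, and scaling to equal total reads gave 97 lower. Leaving out 1 library gave 187 to 272 higher and 161 to 525 lower, since fewer libraries have to be separated. The correlation between the differences within M82 and within pro ranged from 0.448 to 0.603 without single libraries, and could not be computed without M82 library 3 or pro library 2. The count called in pro against M82 was 183 with DESeq2, 23 with 6 libraries and 25 to 766 without single libraries; the cause was not tested. With the replicate number as a block it was 34. Leaving out a library can only widen the margin of a named locus, and the filters leave it as it is, so those settings do not bear on how stable the margins are. Depth limits loci with few reads, such as Solyc09g007010, whose margin of 4.04 (log2) was 2.99 with a pseudocount of 5.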
